A study of Homo sapiens with 50 samples.

Results

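The 53 genes described here carry out DNA replication and cell division: 16 of them serve DNA synthesis, 6 are regulators and 31 act in mitosis. Of the 6 regulators, CCNE1, CCNE2, E2F1 and E2F2 serve the entry into S phase, and MYBL2 and FOXM1 act later, on genes of mitosis. The 53 genes were chosen by name from a table of transcript levels in HepaRG cells and are 53 of 80788 genes and loci in that table. HepaRG is a human hepatic cell line that differentiates into hepatocyte-like and biliary-like cells. Differentiated HepaRG cells were exposed from day 8 to day 14 of culture to 1 of 3 compounds: mesotrione, isoxaflutole and quizalofop-p-ethyl. Each compound was given at 0.1 uM, at 10 uM and at 1 mM. Control cells received no compound. In all groups the medium held 2% fetal bovine serum and 1% DMSO. Mesotrione and isoxaflutole are herbicides that act on tyrosine degradation in plants, and quizalofop-p-ethyl is one that acts on fatty acid synthesis in grasses. Each of the 10 groups had 5 libraries, and 49 of the 50 libraries were used. Whether the 5 libraries of a group are separate cultures is not stated in the labels. The p-values therefore reflect no more than how these samples scatter, and that scatter may be technical.

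A dividing cell copies its DNA in S phase and parts the copies in mitosis. In S phase the MCM proteins unwind DNA, PCNA holds the polymerases on it, and ribonucleotide reductase, thymidylate synthase and thymidine kinase supply its building blocks. E2F factors turn on the genes of replication before S phase. Later, MYBL2 and FOXM1 act with the MuvB complex on genes of mitosis, many of which carry a short promoter element called CHR. Resting cells repress both sets through pocket proteins, and hepatocytes in the adult liver rarely divide.

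The promoters of the classes differed in 2 sets of letters. RefSeq windows of 300 bases (build GRCh38.p14, 250 bases before and 50 after a start) were found for 44 of the 53 genes. They were searched on both strands for E2F letters (TTTCCCGC, TTTGGCGC, TTTCGCGC or TTTGCCGC) and for CHR letters (TTTGAA or TTCGAA). E2F letters lay in a window of 10 of 14 replication genes, 2 of 4 regulators and 3 of 26 mitotic genes, against 3.99% of 27305 genes. CHR letters lay in a window of 21 of 26 mitotic genes, 0 of 4 regulators and 2 of 14 replication genes, against 19.5% of all genes. Among genes of these pathways outside the 53, E2F letters were found in 14 of 32 replication genes and 0 of 25 mitotic genes, and CHR letters in 2 of 32 and 18 of 25. The letters CCAAT, whose matches can share an end base with CHR letters, were present in 11 of 14 replication genes, 1 of 4 regulators and 21 of 26 mitotic genes, against 39.7% of all genes, and outside the 53 in 17 of 32 and 18 of 25. A gene with several windows has more chances of a match, and a match is a run of letters, not a measured binding site. Printed here are the bases just before the start of 3 replication genes with E2F letters, in capitals, and of 3 mitotic genes with CHR letters, in capitals. MCM6 is also 1 of the 2 replication genes with CHR letters in a window, outside the bases printed.
MCM6: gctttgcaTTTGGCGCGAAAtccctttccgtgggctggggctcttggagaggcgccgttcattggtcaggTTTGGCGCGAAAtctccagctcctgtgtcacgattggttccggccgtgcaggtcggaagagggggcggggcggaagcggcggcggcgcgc
UHRF1: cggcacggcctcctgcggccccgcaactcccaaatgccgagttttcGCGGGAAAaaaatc
PCNA: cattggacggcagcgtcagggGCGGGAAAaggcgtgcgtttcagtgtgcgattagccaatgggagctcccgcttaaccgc
MKI67: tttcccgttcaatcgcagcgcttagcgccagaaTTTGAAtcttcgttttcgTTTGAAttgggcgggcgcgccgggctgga
PLK1: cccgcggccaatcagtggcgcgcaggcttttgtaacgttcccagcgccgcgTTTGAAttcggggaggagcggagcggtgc
CDC20: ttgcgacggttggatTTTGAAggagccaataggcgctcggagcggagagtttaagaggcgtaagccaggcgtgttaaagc

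In MCM6 (chr2:135876444-135876603, minus strand) TTTGGCGC overlaps GCGCGAAA, the reverse complement of TTTCGCGC, at 2 places, starting 152 and 90 bases before the start. The match starts 14 bases before the start in UHRF1 (chr19:4909441-4909500, plus strand) and 59 bases before it in PCNA (chr20:5126623-5126702, minus strand). In MKI67 (chr10:128126424-128126503, minus strand) 2 CHR matches begin 47 and 29 bases before the start. PLK1 (chr16:23678809-23678888, plus strand) has its match 29 bases before the start, and CDC20 (chr1:43358901-43358980, plus strand) 65 bases before it.

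All 53 genes had named transcripts in the table. Levels are in FPKM, fragments per length of transcript and per total of fragments, summed over the named transcripts of a gene. In 49 libraries the summed FPKM of all transcripts ran from 541874 to 801657, 17008 to 20328 genes and loci reached 1 FPKM, and the depth, estimated from the step that 1 fragment makes, was 7080000 to 33880000 fragments. The fifth library of the 10 uM quizalofop-p-ethyl group was left out, because it summed to 234909 FPKM, had 6781 genes and loci at 1 FPKM and an estimated 3720000 fragments. A gene was tested if 5 or more libraries reached 1 FPKM, which 24244 did, 51 of the 53 among them. CCNB2, a mitotic cyclin, and UBE2C, an enzyme that marks mitotic proteins for destruction, did not pass: their highest values in 49 libraries were 0.777 and 1.10 FPKM. Changes are log2 differences of FPKM + 1, a scale that understates the change of genes near 0, and were tested with limma over all 10 groups with Benjamini-Hochberg adjustment.

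In control cells these genes were expressed, most of them at low levels. The 16 replication genes together reached 267 ± 29.5 FPKM (SD, n = 5), the 31 mitotic genes 215 ± 36.2 and the 6 regulators 18.1 ± 3.11. Of the 53 genes 50 had a mean of at least 1 FPKM in control, all but CCNE1, CCNB2 and UBE2C. TYMS (44.1 ± 4.40), PCNA (42.6 ± 3.33) and RRM2 (39.6 ± 7.81) were the highest by mean. Neighbours in this order lay within their spread.

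Quizalofop-p-ethyl at 1 mM was the only exposure of the 9 with calls (limma adjusted p under 0.05) among the 51 genes tested. Every gene called was lower than in control. The summed level of the mitotic genes was 8.74% of the control mean, that of the regulators 25.1% and that of the replication genes 35.7%. The mitotic genes summed to 8.88 to 25.9 FPKM in the 5 treated libraries and to 170 to 252 in the 5 control libraries. For the replication genes the ranges were 83.3 to 100.4 and 237 to 306, and for the regulators 3.37 to 5.49 and 14.7 to 21.5. No treated library overlapped a control library in any of these sums. In the other 8 treated groups the mean sums of the replication genes were 96.2% to 113% of control, those of the mitotic genes 96.4% to 118% and those of the regulators 96.3% to 123%.

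**Figure D1:**
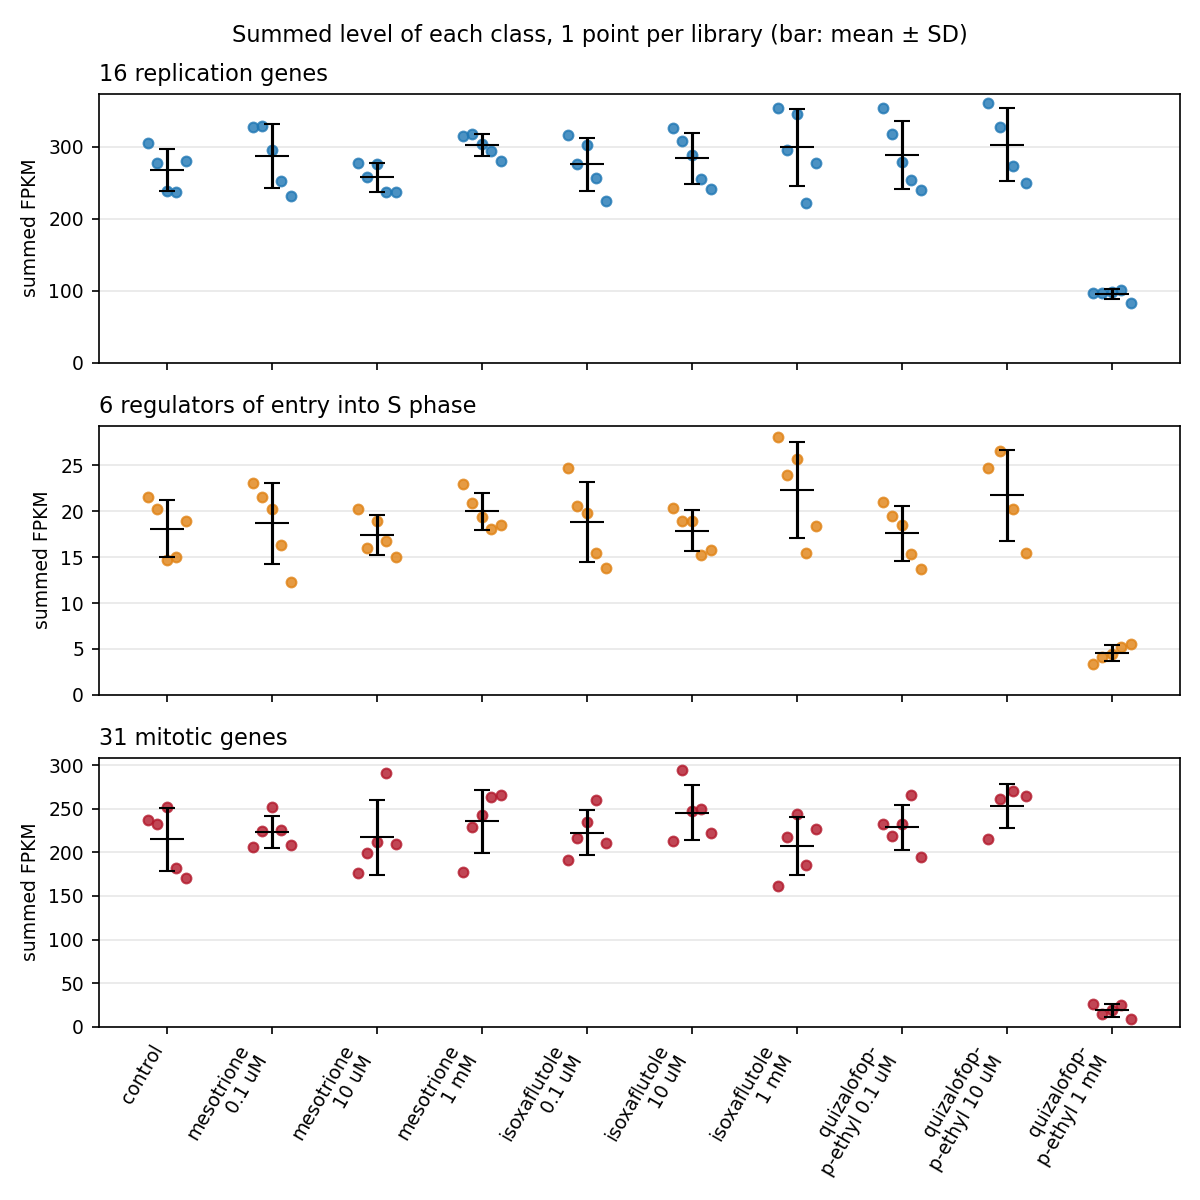
Summed FPKM (vertical axis, linear, from 0) of the 16 replication genes, 6 regulators and 31 mitotic genes in each of 49 libraries by group, with the mean and SD as bars. The panel of the 6 regulators is titled by S phase entry but also holds MYBL2 and FOXM1. Libraries of quizalofop-p-ethyl at 1 mM lie below those of all other groups in each panel, with mitotic sums of 8.88 to 25.9 FPKM.

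By gene, 47 of the 51 tested fell at 1 mM of quizalofop-p-ethyl: 15 of 16 replication genes, 4 of 6 regulators and 28 of 29 mitotic genes. Among all 24244 genes and loci 19.7% fell and 13% rose, and with median-ratio scaling 4107 fell and 4143 rose, against 4787 and 3148 without it. The median log2 change was -1.14 in the replication genes, -1.38 in the regulators and -2.26 in the mitotic genes, against -0.08 over all genes tested. In 46 of the 51 genes the treated and control ranges were apart, with the treated lower, which held for 14.8% of all genes. Summed FPKM cannot tell fewer cells of a type from less RNA per cell.

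**Figure D2:**
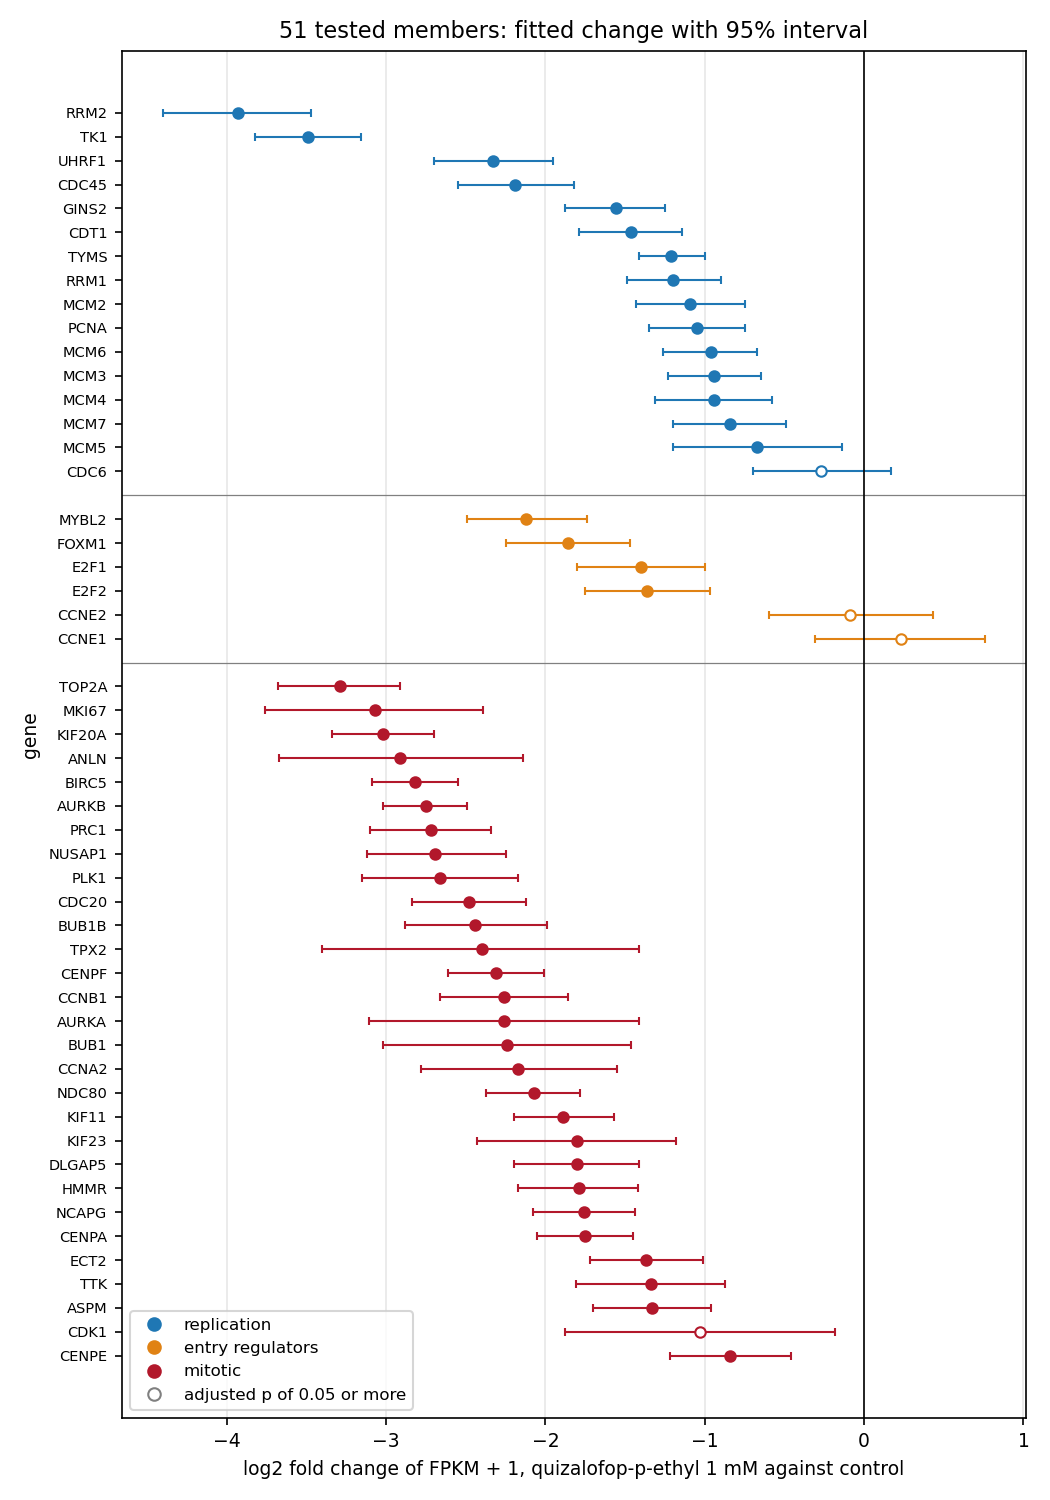
Fitted log2 change of FPKM + 1 (horizontal axis) with its 95% interval for the 51 tested genes at 1 mM of quizalofop-p-ethyl against control, by class, with open points for genes that did not pass the threshold. Mitotic genes lie farthest to the left, with a median of -2.26, and CDC6, CCNE1, CCNE2 and CDK1 are open.

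RRM2 and TK1, which serve nucleotide supply, had the largest log2 changes among the replication genes tested. RRM2, the S phase subunit of ribonucleotide reductase, was at 52.4, 39.6, 39.4, 34.1 and 32.6 FPKM in control and at 2.33, 0.641, 3.12, 3.39 and 0.259 FPKM in treated libraries (log2 change -3.93, SE 0.23, limma adjusted p = 3.96e-18). The highest treated library was far below the lowest control. Its locus, on chromosome 2 from 10122328 to 10131419 (GRCh38), also holds a second named gene in the assembly. TK1, the thymidine kinase of dividing cells, was at 21.6, 20.0, 14.7, 12.4 and 22.1 FPKM in control and at 0.559, 0.485, 0.530, 1.63 and 0.383 FPKM in treated libraries (log2 change -3.49, SE 0.16, limma adjusted p = 3.28e-21; chromosome 17, 78174075 to 78187233). The groups were again apart. RRM1, the large reductase subunit, fell by 1.20 on the log2 scale (SE 0.15, limma adjusted p = 8.67e-09), from 17.98 ± 2.67 to 7.37 ± 1.76 FPKM. TYMS, thymidylate synthase, fell by 1.21 on that scale (SE 0.10, limma adjusted p = 1.95e-13) and kept 18.5 ± 0.797 FPKM.

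UHRF1, which helps the copying of DNA methylation onto new strands, was at 5.70, 5.13, 3.03, 3.32 and 5.71 FPKM in control and at 0.0523, 0.0697, 0.178, 0.0880 and 0.0472 FPKM in treated libraries (log2 change -2.33, SE 0.18, limma adjusted p = 5.33e-14, chromosome 19, 4903080 to 4962154). CDC45 and GINS2, both parts of the active helicase, fell by 2.19 and 1.56 on the log2 scale, from means of 4.46 and 3.17 FPKM to 0.188 and 0.402. CDT1, which loads the MCM ring, fell by 1.46, from 4.67 ± 0.923 to 1.06 ± 0.325 FPKM. The MCM genes fell less: log2 changes of MCM2 to MCM7 lay between -1.09 (MCM2) and -0.67 (MCM5), and 4.32 to 14.8 FPKM of each remained by mean except MCM5 with 2.73. These values are of named transcripts, and unnamed ones held 53.8% of the FPKM at the MCM5 locus in control. With them added MCM5 fell more, as given with CDK1 below. PCNA fell from 42.6 ± 3.33 to 20.1 ± 2.89 FPKM (log2 change -1.05, SE 0.15, limma adjusted p = 1.56e-07). MCM5 was near the threshold, with an adjusted p of 0.0433 in limma, and passed it no longer without a filter, with median-ratio scaling (46 genes called), with all 50 libraries (45, MCM7 lost too) or in 9 of the 10 fits that left out 1 library; without control replicate 1 it still passed. MCM7, TYMS and GINS2 overlap other genes on the opposite strand.

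CDC6, the partner of CDT1 in loading, had the smallest change of its class and did not pass. Its levels were 3.57, 3.45, 2.04, 2.18 and 3.53 FPKM in control and 6.42, 1.53, 1.46, 1.43 and 2.13 FPKM in treated libraries (log2 change -0.27, 95% interval -0.70 to 0.17, limma adjusted p = 0.376; chromosome 17, 40287633 to 40304657). Treated replicate 1 was above every control library, and 3 of the other 4 were below every control. Without replicate 1 the log2 change was -0.57 with a limma adjusted p of 0.0143.

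**Figure D3:**
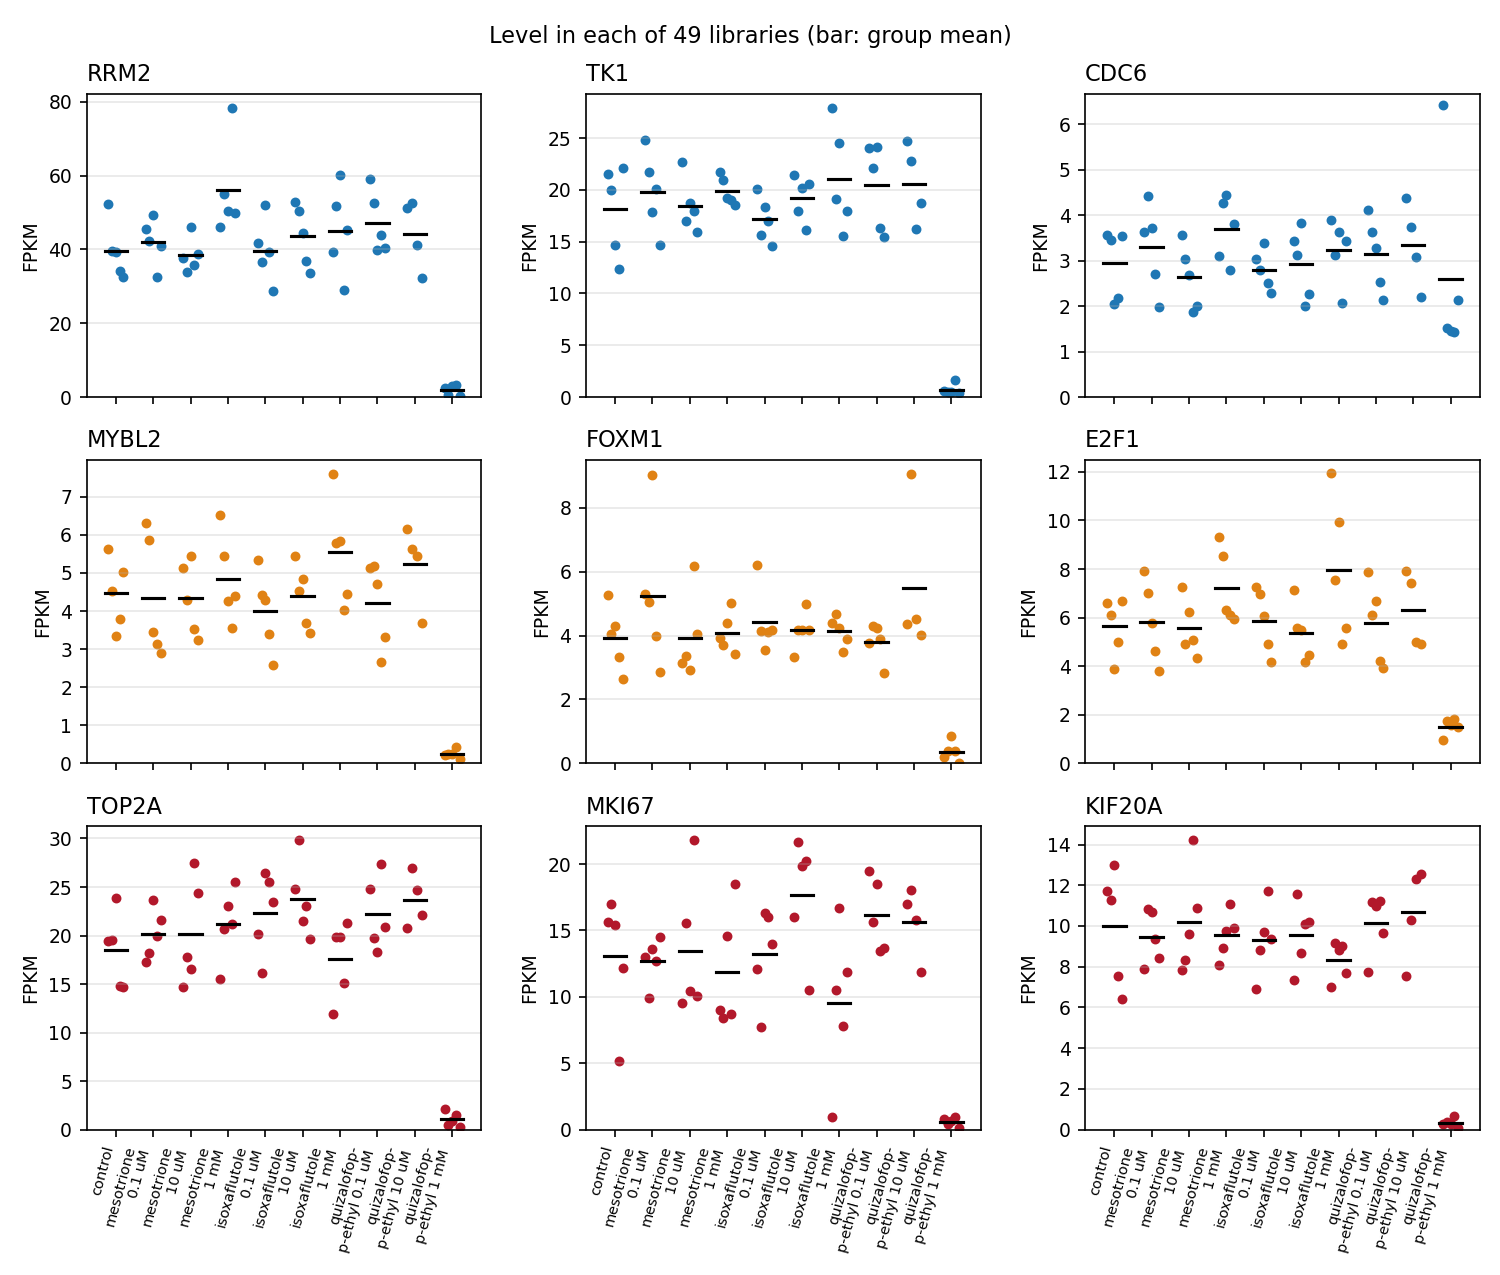
FPKM (vertical axis, linear, from 0) of 3 genes of each class in each of 49 libraries by group, with group means as bars. RRM2, TK1, MYBL2, FOXM1, E2F1, TOP2A and KIF20A drop to low levels in quizalofop-p-ethyl at 1 mM alone, while 1 such library of CDC6 stands at 6.42 FPKM; MKI67 has 1 low library in isoxaflutole at 1 mM.

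The regulators split. MYBL2, the activator that joins MuvB, was at 5.63, 4.53, 3.35, 3.78 and 5.02 FPKM in control and at 0.214, 0.256, 0.243, 0.438 and 0.102 FPKM in treated libraries (log2 change -2.12, SE 0.18, limma adjusted p = 8.09e-13; chromosome 20, 43667019 to 43716496). FOXM1, the forkhead factor of mitotic genes, was at 5.28, 4.04, 4.29, 3.33 and 2.64 FPKM in control and at 0.192, 0.380, 0.853, 0.376 and 0 FPKM in treated libraries (log2 change -1.86, SE 0.19, limma adjusted p = 1.02e-10; chromosome 12, 2857681 to 2877155). E2F1, an activator of replication genes, was at 6.60, 6.10, 3.87, 4.98 and 6.70 FPKM in control and at 0.954, 1.73, 1.57, 1.81 and 1.502 FPKM in treated libraries (log2 change -1.40, SE 0.20, limma adjusted p = 1.84e-07; chromosome 20, 33675683 to 33686404). Treated and control ranges were apart in each of these genes and in E2F2, which fell by 1.36 on the log2 scale. The E-type cyclins, which drive CDK2 at the start of S phase, gave no call. CCNE1 had means of 0.991 ± 0.644 FPKM in control and 1.29 ± 0.628 in treated libraries (log2 change 0.23, 95% interval -0.31 to 0.76). CCNE2 was at 1.80, 1.97, 0.647, 0.256 and 1.71 FPKM in control and at 1.01, 0.488, 1.23, 0.963 and 1.61 in treated libraries (log2 change -0.09, 95% interval -0.60 to 0.43, limma adjusted p = 0.838; chromosome 8, 94879770 to 94896678). Both lie near 1 FPKM with wide spread, so changes inside these intervals were not detectable.

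Of the 29 mitotic genes tested 28 fell. TOP2A, the topoisomerase that untangles sister DNA, was at 19.4, 19.6, 23.9, 14.8 and 14.7 FPKM in control and at 2.15, 0.467, 0.918, 1.54 and 0.266 FPKM in treated libraries (log2 change -3.29, SE 0.19, limma adjusted p = 2.25e-18; chromosome 17, 40388516 to 40417950). MKI67, whose protein Ki-67 marks dividing cells, was at 15.6, 17.0, 15.4, 5.21 and 12.2 FPKM in control and at 0.800, 0.387, 0.659, 0.983 and 0.155 FPKM in treated libraries (log2 change -3.07, SE 0.34, limma adjusted p = 5.13e-10; chromosome 10, 128096659 to 128126385). KIF20A, a kinesin of cytokinesis, was at 11.7, 11.3, 12.99, 7.54 and 6.41 FPKM in control and at 0.254, 0.376, 0.265, 0.685 and 0.0728 FPKM in treated libraries (log2 change -3.02, SE 0.16, limma adjusted p = 9.54e-20; chromosome 5, 138178719 to 138187715). In these genes the lowest control library was above the highest treated library. KIF20A overlaps CDC23 on the other strand, as CCNA2 overlaps EXOSC9, and the use of strand in counting is not given in the sources used.

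The mitotic kinases AURKB, PLK1, AURKA and TTK fell by 2.75, 2.66, 2.26 and 1.34 on the log2 scale. The cyclins CCNB1 and CCNA2, partners of CDK1, fell by 2.26 and 2.17 on that scale. BUB1B and BUB1, of the spindle checkpoint, fell by 2.44 and 2.24, and CDC20, the checkpoint's target, fell by 2.48, from 17.0 ± 4.57 to 2.21 ± 0.737 FPKM. Of the spindle and cytokinesis genes, ANLN fell by 2.91, BIRC5 by 2.82, PRC1 by 2.72, NUSAP1 by 2.69 and TPX2 by 2.40. Kinetochore genes ranged more widely: CENPF fell by 2.31 and NDC80 by 2.07, and CENPA, the centromeric histone, by 1.75. The loci of PLK1, BUB1B and CENPA hold further named genes, so part of their values is uncertain. At the CENPA locus unnamed transcripts held 63.5% of the FPKM in control. The repeat with unnamed transcripts added did not cover it, because the locus holds 2 named genes. The scale understates falls from low levels, such as those of TTK, from 1.89 to 0.113 FPKM by mean, and CENPE, from 1.09 to 0.156. CENPE, a kinetochore motor with 1.09 ± 0.432 FPKM in control, had the smallest log2 change of the mitotic genes tested. It was at 0.936, 1.44, 1.64, 0.610 and 0.830 FPKM in control and at 0.151, 0.342, 0.0859, 0.143 and 0.0560 FPKM in treated libraries (log2 change -0.84, SE 0.19, limma adjusted p = 3.93e-04; chromosome 4, 103105806 to 103198409). Its ranges were apart. With the 2 groups fitted alone (46 genes called) CENPE was not tested, because fewer than 5 of these libraries reached 1 FPKM. CCNB2 and UBE2C, not tested, had means of 0.155 and 0.430 FPKM in control and 0.210 and 0.724 in treated libraries.

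CDK1, the kinase that starts mitosis, was singled out after its values were seen, as the 1 tested mitotic gene without a call. It was at 6.04, 0.275, 0.287, 0.572 and 2.20 FPKM in control and at 0.137, 0.281, 0.119, 0 and 0 FPKM in treated libraries (log2 change -1.03, SE 0.42, limma adjusted p = 0.0551; chromosome 10, 60778331 to 60794852). The table also lists an unnamed assembled transcript at its locus that held 69.7% of the locus's FPKM in control. With that transcript added, CDK1 was at 4.68 to 7.31 FPKM in control and at 0 to 0.532 FPKM in treated libraries (log2 change -2.41, SE 0.16, limma adjusted p = 3.99e-17). Such transcripts held more than 10% of the control FPKM at the loci of 20 of the 53 genes. With them added where a locus had no other named gene, 48 genes fell, MKI67 was at 14.6 to 22.1 FPKM in control, and MCM5 fell by 1.30 on the log2 scale.

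Replication and mitotic genes parted in the treated libraries. The summed FPKM of the 16 replication genes, divided by that of the 31 mitotic genes, was 1.29, 1.19, 0.943, 1.30 and 1.64 in control and 3.74, 6.47, 5.19, 4.003 and 9.38 in quizalofop-p-ethyl at 1 mM. It lay between 0.816 and 2.19 in all libraries of the other 8 treated groups. The ratio also moved with the numbering in the titles, which falls into 5 runs: in 9 of 9 groups other than quizalofop-p-ethyl at 1 mM it was highest in the library of run 1, and in 7 of 9 lowest in that of run 4. What a run stands for is not stated. Within each run the treated library was above the control library, with 3.74 against 1.64 in run 1, 6.47 against 1.29 in run 2, 5.19 against 1.19 in run 3, 4.003 against 0.943 in run 4 and 9.38 against 1.30 in run 5. The median log2 change of the mitotic genes was lower than that of the replication genes by 1.11. This is a description of genes chosen with results known and was not tested. Its size depended on the scale, and was 2.27 with a pseudocount of 0.1 FPKM. TYMS, PCNA and MCM7 kept the highest levels, at means of 18.5, 20.1 and 14.8 FPKM. RRM2, TK1 and UHRF1, with log2 changes of -3.93, -3.49 and -2.33, lay beyond the mitotic median of -2.26. The 4 replication genes whose windows held no E2F letters, CDC45, RRM1, RRM2 and TK1, had a median log2 change of -2.84, and the 10 with such letters -1.07. RRM2 and TK1, the largest changes of the class, are among the 4. Only exact strings were searched, so a window without them is not shown to lack an E2F site. A relation of letters to change was not tested. For mitotic genes the medians were -2.16 with CHR letters and -2.26 without.

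The compounds were also compared directly at 1 mM. Against isoxaflutole 48 of the 51 genes were lower with quizalofop-p-ethyl, where 18.1% of all genes were lower, and against mesotrione 47, where 17.6% were. These comparisons share the quizalofop-p-ethyl libraries. TOP2A was lower by 3.22 and 3.49 on the log2 scale, RRM2 by 4.09 and 4.41, and MYBL2 by 2.37 and 2.21. The calls against isoxaflutole were 15 replication genes, 4 regulators and all 29 mitotic genes tested, CDK1 included. With the 2 groups fitted alone 43 were called lower than with isoxaflutole, without ASPM, CDK1, CENPE, MKI67 and TTK. Compared with mesotrione 44 were, without CCNA2, CDK1 and CENPE. The filter was applied again in these fits, so a gene could drop out untested, as MKI67 did with isoxaflutole. CDK1 was also lost against isoxaflutole without that compound's replicate 2. Against quizalofop-p-ethyl at 10 uM 48 genes were lower at 1 mM, where 19.6% of all genes were, with TOP2A lower by 3.65. Fitted on these 9 libraries alone, 25 passed the threshold, where 2644 of 16671 genes tested were lower. The filter was applied again to these libraries, of which 4 were at 10 uM. Genes below 1 FPKM in all 5 libraries at 1 mM, such as UHRF1, MYBL2 and KIF20A, were therefore not tested. CDC6, CCNE1 and CCNE2 gave no call in these 3 comparisons, nor did MCM5 against mesotrione. Without treated replicate 1, CDC6 passed as lower in each of them. Isoxaflutole and mesotrione at 1 mM were compared too, and none of the 51 genes passed (limma smallest adjusted p = 0.735), where 0.256% of all genes were called. At an unadjusted p under 0.05 stood 1 gene, NDC80, and 6.7% of all genes. For TOP2A this difference was -0.27 (95% interval -0.65 to 0.12) and for RRM2 -0.32 (-0.79 to 0.15).

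No cell cycle gene passed in the 8 remaining comparisons with control. At 1 mM of isoxaflutole, where 2.42% of all genes were called, the smallest limma adjusted p among these genes was 0.350, and 2 of 51 had an unadjusted p under 0.05, as did 12.6% of all genes. The class medians there were 0.15 for replication, 0.19 for the regulators and -0.04 for mitosis. At 1 mM of mesotrione, where 0.879% of all genes were called, the smallest limma adjusted p was 0.427, again with 2 of 51 at an unadjusted p under 0.05, against 9.37% of all genes. The class medians were 0.11, 0.08 and 0.16. The intervals bound what could have been missed: for TOP2A -0.46 to 0.31 with isoxaflutole and -0.19 to 0.58 with mesotrione, and for TK1 -0.13 to 0.54 and -0.18 to 0.49. MKI67 with isoxaflutole had 1 library at 0.9745 FPKM and the other 4 at 7.79 to 16.7, and its interval ran from -1.31 to 0.06. With the unnamed transcripts of its locus added, the 5 libraries were at 13.7 to 19.1 FPKM.

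Quizalofop-p-ethyl at 10 uM gave small positive values in most genes and no call. Of the 51 genes 47 had a log2 change above 0, with class medians of 0.17, 0.16 and 0.25 against 0.02 over all genes. At an unadjusted limma p under 0.05 stood 3, MCM5, PLK1 and HMMR. The genes share the same 4 treated and 5 control libraries, so their signs are not separate observations. The mean replication sum was 113% of control here and also with mesotrione at 1 mM. For the mitotic sum it was 118% here and 114% with isoxaflutole at 10 uM. The share of all genes called was 0.00825%, and 4.79% had an unadjusted p under 0.05. HMMR, a spindle protein, had the smallest unadjusted p, 0.00408 (limma adjusted p = 0.969), with 5.73 FPKM against 3.50 in control. All 9 comparisons share the 5 control libraries. In the 5 remaining groups 0% of all genes were called. At an unadjusted p under 0.05 stood 2 of the 51 genes with quizalofop-p-ethyl at 0.1 uM (3.73% of all genes), 3 with isoxaflutole at 10 uM (4.41%) and 2 at 0.1 uM (5.02%), and 0 with mesotrione at 10 uM (3.06%) and at 0.1 uM (4.22%).

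**Figure D4:**
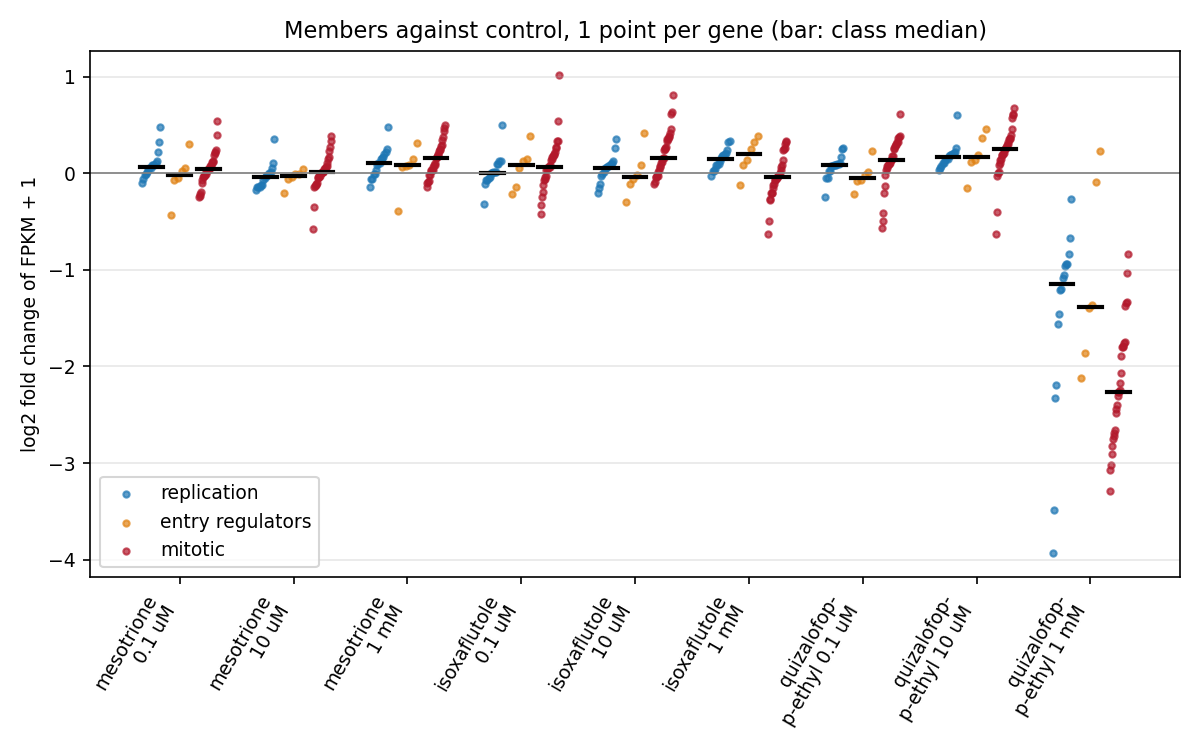
Log2 change of FPKM + 1 against control (vertical axis) for the 51 tested genes in each of 9 exposed groups, coloured by class, with class medians as bars. In 8 groups the class medians lie between -0.04 and 0.25, and in quizalofop-p-ethyl at 1 mM they are -1.14, -1.38 and -2.26.

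Other genes of the same machinery, listed beside the 53, were counted in the same way, from lists chosen with results known. Of 28 other mitotic genes all fell at 1 mM of quizalofop-p-ethyl (median log2 change -1.44), led by TACC3 (-3.34), SPC24 (-2.70), CDCA8 (-2.49) and RACGAP1 (-2.46), which serve the spindle, kinetochore and cytokinesis. TACC3 was at 11.9 to 20.4 FPKM in control and at 0.139 to 1.45 FPKM in treated libraries. Of 37 other replication genes 20 fell and 1 rose (median -0.48), where 19.7% of all genes fell and 13% rose. CLSPN, a checkpoint adaptor of the replication fork, fell by 1.98 on the log2 scale, MCM10 by 1.43 and geminin, GMNN, which restrains CDT1, by 1.35. POLD2, a subunit of DNA polymerase delta, rose from 49.3 ± 2.67 to 64.8 ± 3.13 FPKM (log2 change 0.39, limma adjusted p = 5.49e-04), a call lost with all 50 libraries. The origin recognition genes ORC2 to ORC5 and the polymerase gene POLE gave log2 changes between -0.21 and 0.09 with no call.

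Cyclins, kinases, pocket proteins and E2F factors outside the 53 went in both directions, with 7 lower and 6 higher of 21 tested. Over all genes tested 19.7% were lower and 13% higher. E2F7, a repressor of the family, rose from 3.02 ± 0.569 to 8.39 ± 2.91 FPKM (log2 change 1.18, limma adjusted p = 3.82e-05), while E2F8, its close relative, fell from 2.97 ± 0.947 to 0.630 ± 0.221 (log2 change -1.26, limma adjusted p = 2.12e-08). E2F5, E2F6 and LIN37, a MuvB subunit, rose, with log2 changes of 0.96, 0.68 and 0.67; E2F5 did not pass with the 2 groups alone, and E2F6 and LIN37 did not with all 50 libraries. CDC25A, CDK2 and CDC25B fell by 0.97, 0.83 and 0.78. RB1, RBL2 and CDK4 gave no call, with log2 changes of -0.21, -0.12 and 0.16, though CDK4 and CCND1 passed as higher with median-ratio scaling. LIN9 was not tested.

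Of 6 CDK inhibitors tested, 2 rose and 3 fell, where 13% of all genes rose and 19.7% fell. CDKN1A, which encodes p21, was already at 206 to 246 FPKM in control and was at 329 to 448 FPKM in treated libraries (log2 change 0.77, SE 0.08, limma adjusted p = 1.67e-11). CDKN2B, which encodes p15, rose from 5.27 to 8.08 FPKM in control to 17.8 to 24.8 FPKM (log2 change 1.40, SE 0.13, limma adjusted p = 1.38e-11). CDKN2C, which encodes p18, fell from 14.2 to 18.4 FPKM in control to 0.443 to 2.20 FPKM (log2 change -2.93, SE 0.14, limma adjusted p = 2.40e-21). CDKN2A fell by 0.54, CDKN2D by 0.70 and CDKN1B, p27, gave 0.04. The CDKN2D call was lost with median-ratio scaling, with a pseudocount of 0.1, without a filter and with all 50 libraries, and that of CDKN2A with all 50 libraries.

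**Figure D5:**
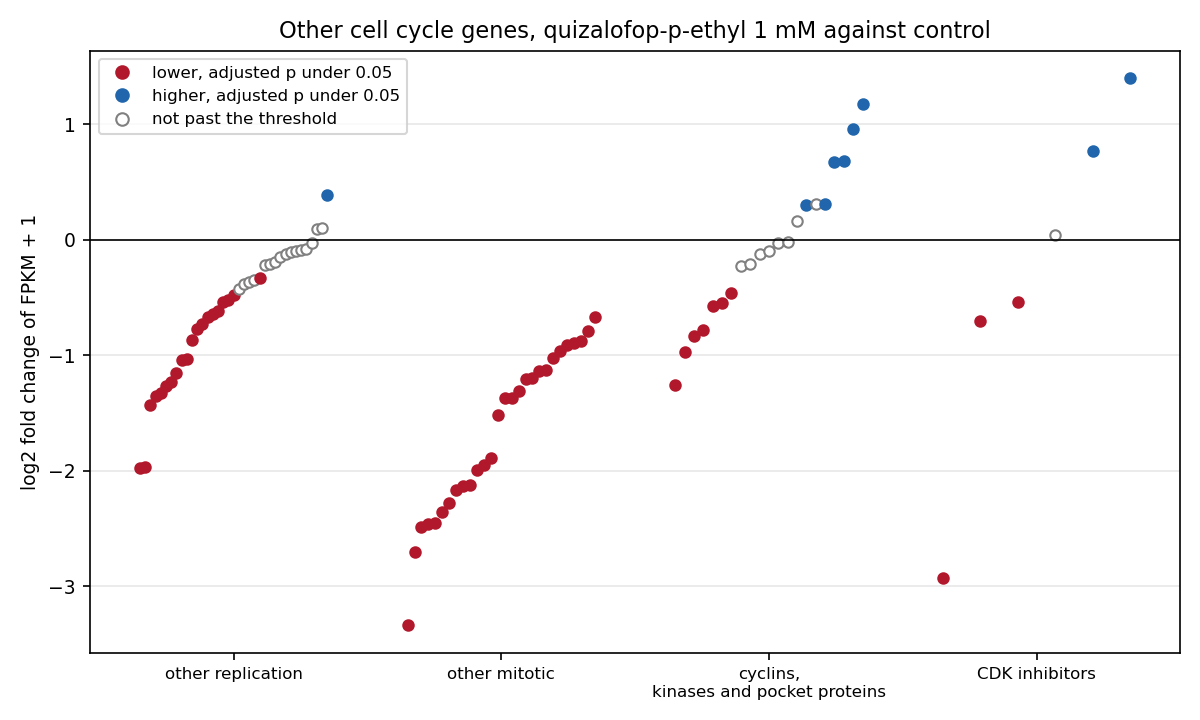
Log2 change of FPKM + 1 (vertical axis) at 1 mM of quizalofop-p-ethyl against control for other cell cycle genes in 4 lists, 1 point per gene, filled red for lower and blue for higher calls and open for none. The other mitotic genes are all red, down to -3.34, and the highest point is CDKN2B at 1.40.

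Markers of the differentiated cells fell in the same 5 libraries. In control ALB, the albumin gene of hepatocytes, was at 9420 FPKM and KRT19, a biliary keratin, at 534 FPKM by mean. Over all genes tested 19.7% were lower and 13% higher with quizalofop-p-ethyl at 1 mM. All 14 hepatocyte-like markers fell, and their summed level was 246 to 6114 FPKM against 21817 to 26688 FPKM in control. Of 6 biliary-like markers tested 4 fell, with sums of 85.6 to 186 FPKM against 636 to 727. KRT19 made up most of the control sum, which had a mean of 670 FPKM. KRT7 and SOX9 gave no call, with log2 changes of -0.11 and 0.09. Sums of the 9 mesenchymal markers were 15.1 to 26.6 FPKM against 52.4 to 68.2, with 4 of 6 tested lower and PDGFRB higher, the latter not without a filter, with all 50 libraries or with the 2 groups alone. Leukocyte sums were 2.72 to 15.6 FPKM against 8.75 to 36.2, with 2 of 3 tested lower, and endothelial sums 0.389 to 0.939 against 1.69 to 2.37, with the 1 tested lower. CD3E, MS4A1 and CDH5 were listed at 0 in all control libraries, and EPCAM, a biliary marker, at no more than 0.0575 FPKM in any library. The mesenchymal markers COL1A2, THY1 and VIM, not tested, had control means of 0.00208, 0.103 and 0.170 FPKM. Marker sums were also lower by mean at 1 mM of the other compounds, where no cell cycle gene passed: with mesotrione and isoxaflutole the mesenchymal sums were 48.4% and 44% of control, the biliary-like 71.2% and 77.4%, the hepatocyte-like 83.9% and 68.6%, the endothelial 72.4% and 74.8% and the leukocyte 72.5% and 99.2%. The part of the marker shifts in the fall of the cell cycle genes was not tested. Treated replicate 5 had the lowest hepatocyte-like sum and the lowest mitotic sum. Leaving out any library of control or of quizalofop-p-ethyl at 1 mM left 46 to 47 genes called.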

How the data were processed

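The authors deposited a table of FPKM values for 239290 transcripts, 199173 with a gene name and 40117 without, in 50 libraries. Total RNA was depleted of ribosomal RNA, prepared with a strand-keeping kit and sequenced as 75-base read pairs in 3 pools, per the labels' protocols; which library was in which pool is not given. Build GRCh38 and the tools StringTie, HISAT2 and HISAT are listed, per the submitters' processing notes. In 20 deposited columns 1 or more values lay slightly below 0, so these columns were treated as a score in FPKM units, and the 24 values below 0 were set to 0; 1 broken line was rejoined. FPKM is relative to a library's total, so abundant RNA lowers all other values.

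FPKM were summed by gene name and locus (80788). limma 3.58.1 in R 4.3.3 fitted log2(FPKM + 1) with 1 mean per group over 49 libraries, with trend and robust moderation, after a filter of at least 1 FPKM in at least 5 libraries. Adjustment was by Benjamini-Hochberg within each of 13 comparisons, with a threshold of 0.05. The procedure was tested on simulated data. The 53 genes, their classes and the other lists were chosen with earlier results of these data known. Genes with values in every library are, in each class, the 3 with the largest change at 1 mM of quizalofop-p-ethyl among those with a control mean of at least 1 FPKM, and the 1 with the smallest. In the other lists up to 4 genes past the threshold with the largest change in each direction were named, and others were named for their role after values were seen. Of these, 1 gene is not reported here. Each count was repeated with median-ratio scaling, with a pseudocount of 0.1, without the filter, with the 2 groups alone, with all 50 libraries, with the runs of consecutive title numbers as a block, with unnamed transcripts added, and with each library left out. The filter was applied anew in each repeat that kept it. Promoter windows are from RefSeq. Sums used pandas 2.3.3 and numpy 2.4.6 under Python 3.11.15.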

Additional observations from a re-analysis of the deposited data

Results flagged for a closer look

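A library far from the rest of its group was found in 4 of 56 groups of values examined, where chance gives about 1 in 20. The summed FPKM of the replication genes in quizalofop-p-ethyl at 1 mM had 1 low library at 83.3, with the other 4 at 97.0 to 100.4. The mitotic sum in quizalofop-p-ethyl at 10 uM had 1 low library at 216, still above every library at 1 mM. TK1 had 1 high treated library at 1.63 FPKM, below every control. CDC6 had 1 high treated library at 6.42 FPKM, the highest value of CDC6 in the 49 libraries.

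The effect of quizalofop-p-ethyl at 1 mM differed from that of the other compounds at the same concentration in direct tests. Against isoxaflutole 48 of the 51 genes tested passed the threshold, where 18.1% of all genes were lower. Against mesotrione 47 passed, where 17.6% of all genes were lower.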

How the results depend on the processing

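For quizalofop-p-ethyl at 1 mM against control, 45 to 48 of the genes were called under the alternatives other than leaving out a library, each of them as lower. When a library was left out, 46 to 47 were called. Over all genes, 19.7% were lower in the main fit, and 5001 of 24244 with a pseudocount of 0.1. Leaving out 1 library gave 47 to 49 against isoxaflutole, 47 to 49 against mesotrione and 48 to 49 against 10 uM of the same compound, and 0 in each of the other 9 comparisons. The shares of all genes lower against isoxaflutole, mesotrione and 10 uM were 18.1%, 17.6% and 19.6% in the main fit. In the fit of the 2 groups alone 25 were called against 10 uM, where 2644 of 16671 genes tested were lower. It has 9 libraries, and the filter of at least 1 FPKM in at least 5 libraries was applied again to them. Genes below 1 FPKM in all 5 libraries at 1 mM could therefore not be tested there. The replication and mitotic medians differed by 2.27 with a pseudocount of 0.1, and by 0.95 (control replicate 3 absent) to 1.27 (control replicate 5 absent) when a library was left out. CCNE2 lay between -0.28 and 0.03 on the log2 scale when a library was left out, and was above 0 in the absence of control replicate 1 (0.01), control replicate 2 (0.03) or treated replicate 2 (0.02). CDK1 passed with a pseudocount of 0.1 (-2.55) and without control replicate 2, 3 or 4. Over all genes, a treated library and the control of its title run correlated at -0.0786 to 0.144 in their deviations from the group means. Of the 5 libraries of quizalofop-p-ethyl at 1 mM, 3 correlated best with the control of their own run. The main fit did not use the runs as pairs or blocks, though the replication to mitotic ratio moved with them. With the replicate block of runs 47, 48, 48 and 48 genes were called in the 4 comparisons with quizalofop-p-ethyl at 1 mM and 0 in the others. There 4931, 4506, 4360 and 4713 of 24244 genes were lower, in the same order. Over all genes, the block raised calls for mesotrione at 1 mM from 43 higher and 170 lower to 79 and 264. For isoxaflutole at 1 mM they rose from 281 higher and 306 lower to 389 and 422. All 50 libraries gave 45 calls against control and 42 against 10 uM, where 3041 and 1768 of 24291 genes tested were lower. Without a filter UBE2C passed as higher than with isoxaflutole. Apart from genes that the filter left untested, the cause of these shifts was not tested. Levels below 1 FPKM rest on few fragments, which limits CCNE1, CCNE2, CENPE, CCNB2 and UBE2C. The same limit holds for the treated levels of many genes that fell, such as UHRF1, MYBL2 and KIF20A, with means of 0.0869, 0.251 and 0.331 FPKM.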

Other observations

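The library left out of the fit, replicate 5 of quizalofop-p-ethyl at 10 uM, had summed levels of 37.5 FPKM for the replication genes and 14.9 for the mitotic genes, against lowest values of 83.3 and 8.88 in the 49 libraries used.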
